A study of Mus musculus with 4 samples.

Results

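In 2 single-cell libraries of mouse blastocysts in diapause, labelled EDG9.5 and EDG7.5, 714 of 1591 trophoblast cells carried at least 3 molecule counts (UMIs) of Msx1, Igf2 and Cyp26a1 together. They are called positive trophoblast here, and the 374 trophoblast cells with none of these UMIs are called negative trophoblast. Trophoblast cells were those with at least 1000 UMIs in which the UMIs of Gata2, Gata3, Tspan8, Dppa1 and Cdx2 summed to at least 3 and exceeded both the sum of Sox2, Tdgf1, Nanog and Fgf4 and the sum of Col4a1, Lamb1, Sparc and Srgn. EDG9.5 held 428 positive, 231 negative and 318 intermediate cells with 1 or 2 UMIs, and EDG7.5 held 286, 143 and 185. These 1591 cells came from 4245 cells with at least 1000 UMIs in both libraries, and the whole series holds 14529 barcodes. Because Msx1, Igf2, Cyp26a1 and the genes that define trophoblast chose the cells, their values are descriptions. A negative cell is a cell without a UMI, which at these depths is not a cell without the RNA.

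All cells came from whole wild-type embryos of strain B6C3F1/J, pooled within a stage (200 to 250 blastocysts flushed from the uterus for each diapause library and for the Reactivated library, and 50 embryos taken out of implantation sites for E5.5), taken apart with TrypLE, and their cells were captured in the microwells of a BD Rhapsody cartridge. The Reactivated label is EDG9.5 followed by 30 h of E2. Each stage is 1 library, so stage and library cannot be told apart, no difference has a replicate check, and all intervals are 95% intervals that cover counting error only. Levels are UMIs of a gene per 1000000 UMIs of the summed cells (CPM), which is a share of RNA and not an amount per cell.

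The blastocyst of the mouse can pause before implantation, with the embryo held in the uterus in a state of low activity until oestrogen permits attachment. Trophoblast is its outer epithelium. The part over the inner cell mass, polar trophectoderm, is kept proliferating by FGF from the epiblast, while mural cells away from it become giant cells. Msx1 encodes a homeobox transcription factor downstream of BMP signals in many tissues, and the uterine epithelium also uses it in delayed implantation. Igf2 encodes a growth factor and is expressed from the paternal allele. Its neighbour H19, a long non-coding RNA, is expressed from the maternal allele under the same imprinting control region. Cyp26a1 encodes the enzyme that degrades retinoic acid, and its transcription is itself induced by retinoic acid.

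On mm10, which is the build of the files, RefSeq places Msx1 at chr5:37820491-37824585 and Cdx2 at chr5:147300900-147307249. H19 lies at chr7:142575530-142578146 and Igf2 at chr7:142650768-142666816, with 72.6 kb between them. Igf2os, a non-coding RNA annotated at chr7:142659680-142670356, shares 7137 bases of position with Igf2. The strand setting of the counting is not given in the sources used here, so reads of Igf2 and Igf2os may not be told apart. Cyp26a1 lies at chr19:37697738-37701536. Its promoter window is shown because it holds a direct repeat of the kind retinoic acid receptors bind, with elements AGGTCA or AGTTCA spaced by 5 bases. The window runs from 250 bases before to 50 bases after a RefSeq transcript start that lies downstream of the first base of the annotated gene, at chr19:37697558-37697857 on the plus strand (RefSeq, GRCm38.p6). Capitals mark the match.
Cyp26a1 promoter: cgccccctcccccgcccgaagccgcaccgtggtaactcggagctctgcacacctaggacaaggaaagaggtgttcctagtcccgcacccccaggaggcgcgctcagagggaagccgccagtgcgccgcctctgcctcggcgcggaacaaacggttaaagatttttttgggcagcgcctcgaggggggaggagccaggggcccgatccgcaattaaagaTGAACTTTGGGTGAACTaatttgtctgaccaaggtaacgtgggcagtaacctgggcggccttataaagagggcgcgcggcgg
The match of 17 bases at chr19:37697776-37697792 begins 32 bases before that start, and its reverse strand reads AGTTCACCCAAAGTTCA. The motifs searched on both strands were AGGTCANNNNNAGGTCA, AGGTCANNNNNAGTTCA, AGTTCANNNNNAGGTCA and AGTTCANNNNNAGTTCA, and no other motif was searched. Of 32851 promoter windows of this length searched (1 chromosome was left out), 13 held a match (0.0396%). Of 27 genes (the 3 that chose the cells and 12 named in each direction below), 23 had a window, and 1, Cyp26a1, had a match. The match is a description of these letters and shows no binding. H19 is also the precursor of miR-675, which these libraries do not measure. Its mature sequences are given because H19 carries the main difference described below, with the seed (bases 2 to 8) in capitals.
mmu-miR-675-5p: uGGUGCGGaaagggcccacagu
mmu-miR-675-3p: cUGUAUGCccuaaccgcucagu
They lie on the minus strand at chr7:142577112-142577133 and chr7:142577078-142577099, within H19, and do not share a seed.

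Positive trophoblast made up 43.8% (40.7 to 47.0) of trophoblast in EDG9.5 and 46.6% (42.6 to 50.6) in EDG7.5, with exact Clopper-Pearson intervals. When every cell was thinned to 1000 UMIs the shares were 10.6% (8.78 to 12.7) and 9.45% (7.25 to 12.04), so the share depends on depth and no order of the libraries was read from it. A threshold on UMIs favours deep cells. The median was 4645.5 UMIs and 1949.5 genes per positive cell against 3136 UMIs and 1518 genes per negative cell in EDG9.5, and 5143.5 UMIs and 2146.5 genes against 3851 UMIs and 1846 genes in EDG7.5. Cells with at least 12000 UMIs numbered 24 among positive and 0 among negative cells of EDG9.5, and 20 and 4 in EDG7.5. The median share of mitochondrially encoded UMIs was 8.19% against 9.15% in EDG9.5 and 10.2% against 10.1% in EDG7.5. Doublets called by Scrublet were kept, and took 2 positive and 1 negative cell of EDG9.5 and 2 and 0 of EDG7.5. The 2 diapause libraries share 8 barcodes, of which 0 were positive cells in both.

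Few epiblast or endoderm cells of the diapause libraries reached the same threshold. At least 3 UMIs of the 3 genes were present in 1 of 592 epiblast cells (0.169%) and 13 of 893 endoderm cells (1.46%) of EDG9.5, and in 3 of 494 (0.607%) and 9 of 587 (1.53%) in EDG7.5, at median depths of 4032, 3618, 5503 and 5149 UMIs. What these shares owe to free RNA, to mixed cells or to expression in these classes was not tested. The shares of trophoblast given above were far higher. After thinning, 0 cells of either class reached 3 UMIs.

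Among positive cells, Igf2 was detected in 82.7%, Msx1 in 66.4% and Cyp26a1 in 65.2% in EDG9.5, and in 87.1%, 78.3% and 62.6% in EDG7.5. Levels in positive trophoblast were 439.7 CPM of Msx1, 556 CPM of Igf2 and 338 CPM of Cyp26a1 in EDG9.5, and 557, 674 and 232 CPM in EDG7.5. Msx1 and Igf2 were detected together with Cyp26a1 in 30.6% of positive cells of EDG9.5 and 40.6% of EDG7.5, and without it in 23.6% and 27.6%. The other positive cells had no UMI of Msx1, of Igf2 or of both. Cyp26a1 alone was detected in 22 cells of EDG9.5 (5.14%) and in 8 cells of EDG7.5 (2.80%), which carry neither Msx1 nor Igf2. Cdx2, the transcription factor that specifies trophectoderm, marked positive and negative cells alike, with 338 against 369 CPM in EDG9.5 and 349 against 303 CPM in EDG7.5. The ratios were 0.918 (0.804 to 1.05) and 1.15 (0.979 to 1.36), so their intervals include 1 and shifts of that size are not resolved. The other genes of the trophoblast rule were lower in positive cells. Gata3 had 1125 against 1592 CPM in EDG9.5 and 696 against 1093 CPM in EDG7.5, and Gata2 had 629 against 986 CPM and 903 against 996 CPM.

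Among genes that did not choose the cells and were measured in both libraries, H19 had the highest log2 ratio of CPM + 10 in each. It had 7961 CPM (7850 to 8074) in positive against 1275 CPM (1199 to 1355) in negative trophoblast of EDG9.5, and 9334 CPM (9192 to 9479) against 426 CPM (377 to 479) in EDG7.5. The ratios were 6.24 (5.87 to 6.65) and 21.9 (19.4 to 24.8). H19 was detected in 86.4% of positive against 37.7% of negative cells of EDG9.5, and in 85.7% against 28.7% in EDG7.5. In the same cells thinned to 1000 UMIs, the shares were 78.3% against 29.0% and 73.1% against 13.99%. The cells overlapped all the same, since the highest negative cell of EDG9.5 reached 61224 CPM and that of EDG7.5 23858 CPM, and 12.02% and 21.4% of the H19 UMIs of negative trophoblast lay in 1 cell of each library. Epiblast cells had 11.8 CPM of H19 in EDG9.5 and 112 CPM in EDG7.5, where 48.1% of its UMIs lay in 1 cell, and endoderm cells 76.5 and 46.0 CPM. With the negative cells weighted to the depth of the positive ones, the log2 ratios of CPM + 10 were 3.09 and 5.05, beside 2.63 and 4.42 unweighted. That weighting left out 24 deep positive cells of EDG9.5 that had no negative cell of like depth, and brought the median depth of negative cells to 4349 and 5054 UMIs, so depths were matched only in part.

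The level of H19 followed the number of selecting UMIs. Over cells with 0, 1, 2, 3, 4 to 5, 6 to 10, 11 to 20 and over 20 of these UMIs, H19 had 1275, 2322, 3880, 5970, 4478, 7570, 12125 and 11446 CPM in EDG9.5. In EDG7.5 the same classes had 426, 1340, 1746, 2951, 5012, 7913, 13674 and 20230 CPM. From just outside the threshold (2 UMIs) to just inside it (3 UMIs), H19 rose from 3880 to 5970 CPM in EDG9.5 and from 1746 to 2951 CPM in EDG7.5. In EDG9.5 it was then lower at 4 to 5 UMIs. H19 also rose away from the threshold, as from 0 to 1 UMIs, with 1275 and 2322 CPM in EDG9.5 and 426 and 1340 CPM in EDG7.5. Gjb2, which encodes a gap junction protein (connexin 26), ran the other way. It had 3035, 2581, 2056, 2072, 1943, 1453, 755 and 337 CPM over these classes in EDG9.5, and 2435, 2498, 2558, 1660, 1321, 1360, 611 and 288 CPM in EDG7.5, where its first drop lay between 2 and 3 UMIs. Cdx2 stayed between 307 and 369.7 CPM in EDG9.5 and between 283 and 403 CPM in EDG7.5. The median depth per cell also went up over the classes, and was 3136 UMIs at 0 and 9364 UMIs over 20 in EDG9.5, and 3851 and 9308 UMIs in EDG7.5; its part in these trends was not tested.

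**Figure D1:**
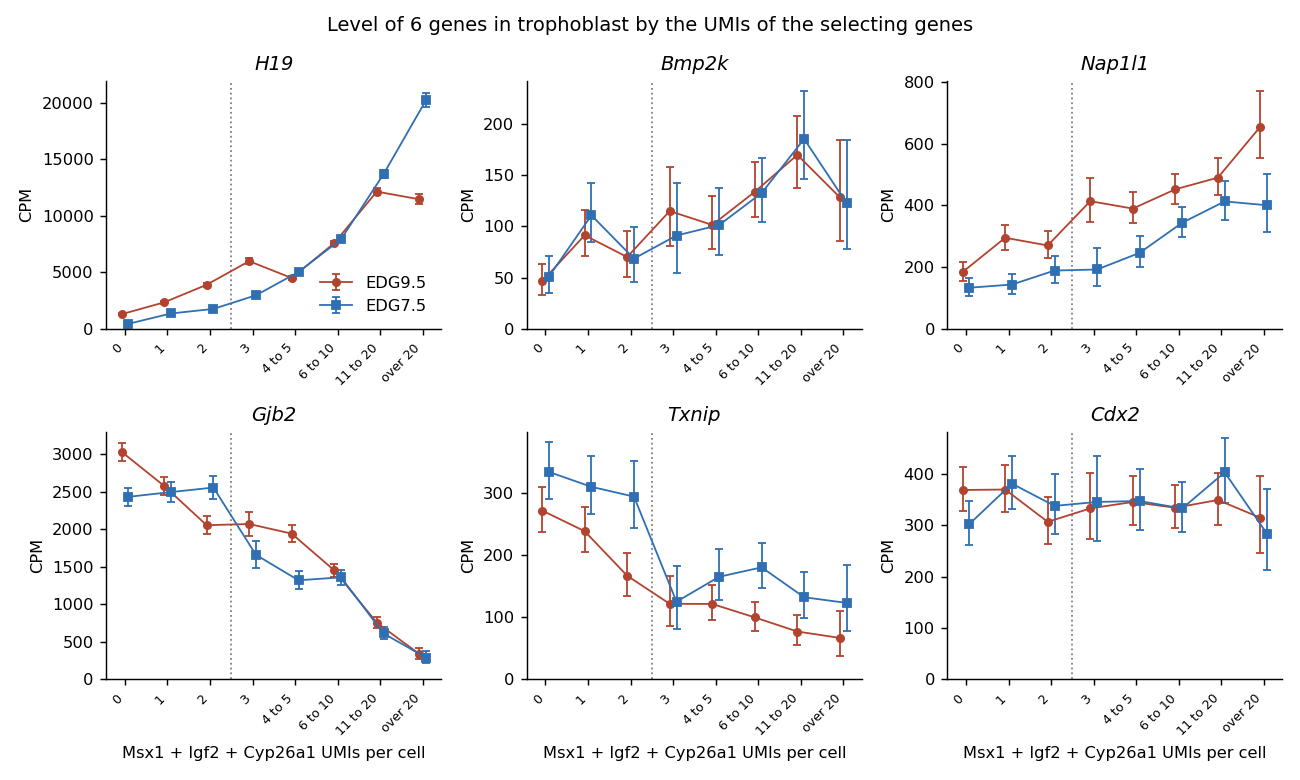
CPM of 6 genes (vertical axes, linear) in trophoblast grouped by the summed UMIs of Msx1, Igf2 and Cyp26a1 per cell (horizontal axis), for EDG9.5 (circles) and EDG7.5 (squares). Bars are 95% Poisson intervals of counting error, and the dotted line is the threshold of 3 UMIs. H19 was 1275 and 426 CPM at 0 UMIs and 11446 and 20230 CPM over 20, Gjb2 3035 and 2435 CPM at 0 and 337 and 288 CPM over 20, while Cdx2 showed no trend.

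Which selecting genes a positive cell carried went with its H19. Cells with Msx1 and Igf2 had the most, 11917 CPM in EDG9.5 (101 cells) and 10823 CPM in EDG7.5 (79 cells), together with cells in which all 3 genes were detected, 9512 CPM (131 cells) and 11755 CPM (116 cells). Cells with Igf2 alone had 7144 and 7632 CPM (29 and 17 cells), and cells with Igf2 and Cyp26a1 4541 and 4767 CPM (93 and 37 cells). Msx1 alone went with 4750 and 3835 CPM in 19 and 11 cells. Msx1 with Cyp26a1 differed between the libraries, at 9327 CPM in EDG9.5 (33 cells) and 4528 CPM in EDG7.5 (18 cells). Cells with Cyp26a1 alone had the least, 906 CPM (758 to 1075) in EDG9.5 and 1452 CPM (1156 to 1799) in EDG7.5. The first value is under that of negative trophoblast (1275 CPM, 1199 to 1355) and the second above it (426 CPM, 377 to 479). Neither the number of selecting UMIs nor depth was held fixed over these groups. In EDG9.5 the median depth was 2773 UMIs with Msx1 alone and 5637 UMIs with Cyp26a1 alone. The part of both in these H19 levels was not tested, and the smaller groups rest on few cells.

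**Figure D2:**
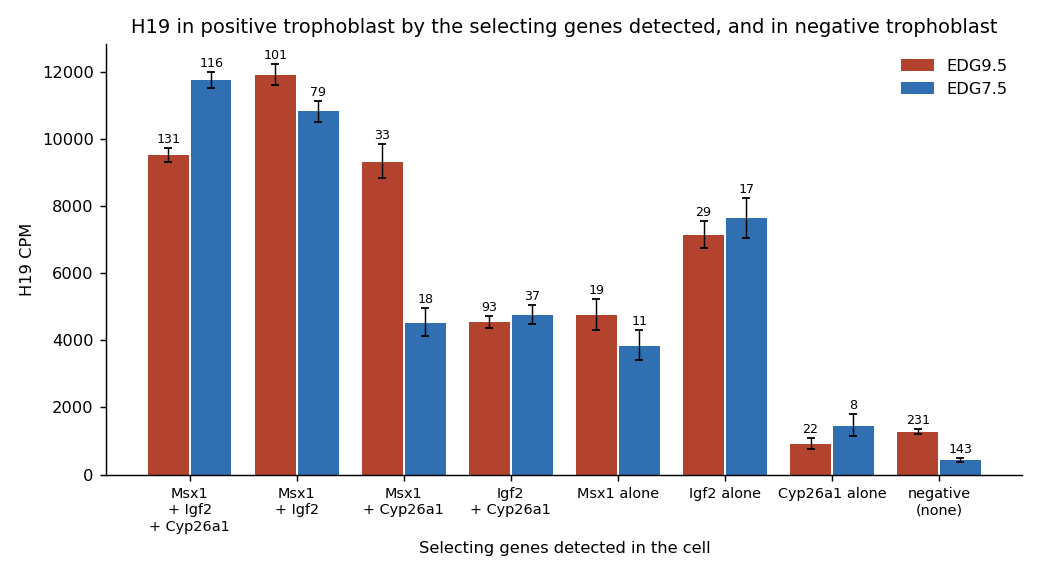
H19 CPM (bars, from 0) of positive trophoblast split by which of Msx1, Igf2 and Cyp26a1 were detected, with negative trophoblast at the right, for EDG9.5 and EDG7.5. Error bars are 95% Poisson intervals of counting error and the number above each bar is its count of cells. Cells with Cyp26a1 alone (906 and 1452 CPM) sit far under cells with Msx1 and Igf2 (11917 and 10823 CPM).

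Choosing cells by a single gene leaves the other genes unused by the choice. Trophoblast with at least 2 Msx1 UMIs (233 cells in EDG9.5, 186 in EDG7.5) had 539.6 CPM of Igf2, against 248 CPM in trophoblast without Msx1 UMIs (613 cells), in EDG9.5, and 707 against 168 CPM (352 cells) in EDG7.5. The Igf2 ratios were 2.18 (1.96 to 2.42) and 4.21 (3.68 to 4.81). The same cells had 10714 against 2656 CPM of H19 in EDG9.5 and 10933 against 1693 CPM in EDG7.5, ratios of 4.03 and 6.46. Msx1 and Igf2 went together in both libraries without the sum of UMIs fixing it. Cyp26a1 had smaller ratios. By at least 2 Igf2 UMIs against 0 its ratio was 1.64 (1.42 to 1.89) in EDG9.5 and 1.51 (1.24 to 1.85) in EDG7.5. Its ratio by Msx1 was 1.32 (1.15 to 1.51) and 1.498 (1.24 to 1.81), with 254 against 193 CPM in EDG9.5 and 185 against 123 CPM in EDG7.5. Chosen by at least 2 Cyp26a1 UMIs (236 and 122 cells), trophoblast had 288 against 234 CPM of Msx1, 403 against 320.0 CPM of Igf2 and 6139 against 4843 CPM of H19 in EDG9.5. In EDG7.5 the values were 322 against 269 CPM, 437 against 323 CPM and 6760.0 against 3830 CPM. The H19 ratio by Cyp26a1 was 1.27 (1.23 to 1.30) and 1.76 (1.70 to 1.83), and Cdx2 ratios by the 3 genes lay between 0.904 and 1.15. Deeper cells are more likely to carry 2 UMIs of any gene, and the part of depth in these ratios was not tested.

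Across all genes, positive and negative trophoblast differed in few. Of 5938 genes with at least 50 UMIs over the 2 sums in each library, 20 were at least 2-fold higher in positive trophoblast in both libraries (0.337%) and 9 at least 2-fold lower (0.152%), on the scale of log2(CPM + 10). Taken over all genes measured, the median log2 ratio was -0.06 in EDG9.5 and -0.01 in EDG7.5. The sums were unequal, with 2458768 UMIs in positive against 821644 in negative cells of EDG9.5, and 1749449 against 647732 in EDG7.5. Genes higher in positive cells reached the minimum of 50 UMIs at a lower CPM, as Fdps with 52 against 4 UMIs in EDG9.5. The part of this in the 20 and 9 was not tested. The 20 were H19, Unc5b, 1600029D21Rik, Tnfrsf9, Cd47, Snx10, Bmp2k, Blnk, Nap1l1, Dnmt3l, Ezr, Lphn2, Dusp4, Tifa, Fdps, Kif23, Igf2os, Mtmr7, Tmem98 and Ube2a. The 9 were Gjb2, Txnip, Klf3, Tmcc3, Plxnb1, Cers3, Myh7b, Ppp1r14c and Pramel6. In EDG9.5, 21.9% of the Tnfrsf9 UMIs of positive cells lay in 1 cell. Nap1l1 and Pramel6 have close copies with which reads may be shared, and Igf2os overlaps the selecting gene Igf2. With negative cells weighted to the depth of positive cells the counts were 28 and 7, of which 15 and 4 were among the genes just named. Among cells under 12000 UMIs, a limit chosen after the data were seen, they were 15 and 8, with 13 and 7 shared. In EDG9.5 alone 1.08% of 6827 genes were 2-fold higher and 0.513% lower, and in EDG7.5 alone 1.23% and 0.716% of 6005 genes.

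**Figure D3:**
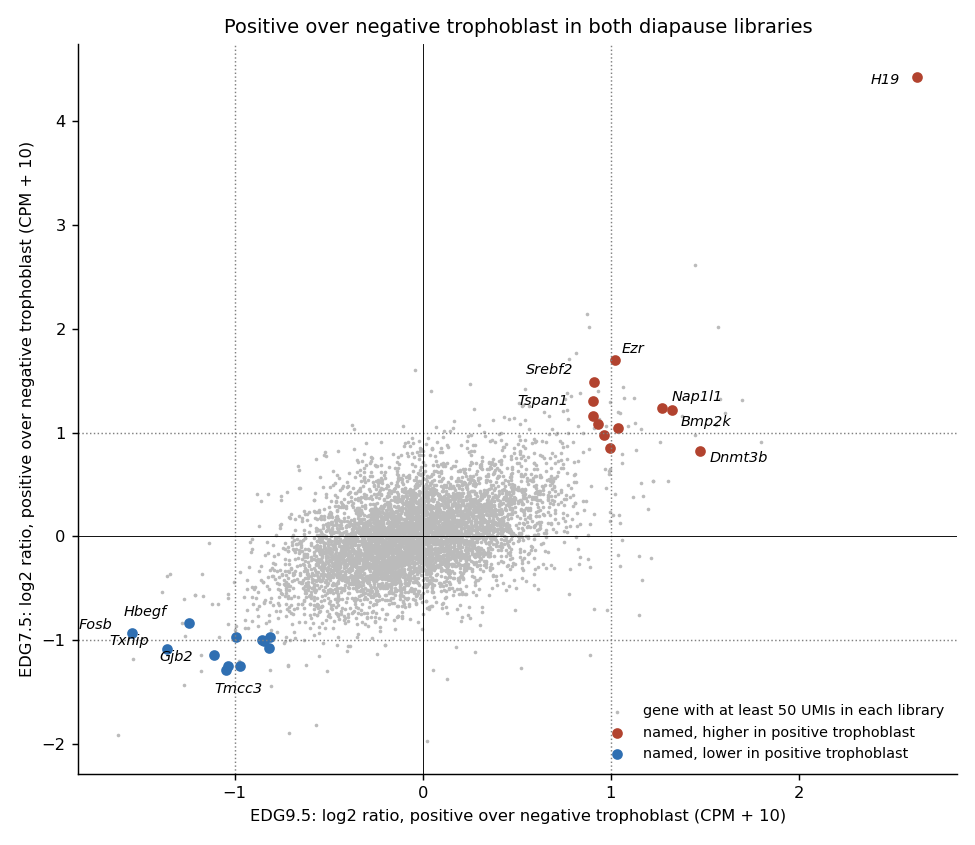
Log2 ratio of CPM + 10 of positive over negative trophoblast in EDG9.5 (horizontal axis) and EDG7.5 (vertical axis), 1 point per gene with at least 50 UMIs in each library, without the 3 selecting genes. Coloured points are the 12 named genes in each direction, and dotted lines mark 2-fold. H19, at 2.63 and 4.42, has the highest ratio of the plotted genes in both libraries.

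Among genes of at least 100 CPM, with predicted genes such as 1600029D21Rik left out, H19 was followed by Nap1l1, Bmp2k, Ube2a and Ezr in the smaller of the 2 library ratios. Nap1l1, a histone chaperone, had 459 CPM in positive against 184 CPM in negative trophoblast of EDG9.5, and 326 against 133 CPM in EDG7.5. Bmp2k, a kinase named for its induction by BMP2, had 131 against 46.2 CPM in EDG9.5 and 132 against 50.9 CPM in EDG7.5. Ezr encodes ezrin, which links the apical membrane to actin, and had 462 against 223 CPM in EDG9.5 and 533 against 157 CPM in EDG7.5. The ratios of these genes were 2.496-fold (2.10 to 2.98) and 2.45-fold (1.95 to 3.12) for Nap1l1, 2.83-fold (2.02 to 4.08) and 2.59-fold (1.79 to 3.85) for Bmp2k and 2.08-fold (1.77 to 2.44) and 3.39-fold (2.76 to 4.20) for Ezr, in EDG9.5 and EDG7.5. Ube2a, a ubiquitin-conjugating enzyme, had 233 against 108 CPM in EDG9.5 and 268 against 125 CPM in EDG7.5, and Crip1, a small LIM protein, 789 against 399 CPM in EDG9.5 and 970.0 against 488 CPM in EDG7.5. The FGF receptor gene Fgfr1 had 148 against 73.0 CPM in EDG9.5 and 229.8 against 103 CPM in EDG7.5. Spry2, an inhibitor of receptor tyrosine kinase signalling that FGF induces, had 148 against 69.4 CPM in EDG9.5 and 147 against 77.2 CPM in EDG7.5. On the scale of log2(CPM + 10), Fgfr1 was past 2-fold in EDG7.5 only, at 0.93 and 1.08, and Spry2 was just short of 2-fold, at 0.997 and 0.85. Without the added 10 CPM, their EDG9.5 ratios were 2.03 and 2.14.

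Srebf2, the transcription factor that drives cholesterol synthesis, had 144 against 71.8 CPM in EDG9.5 and 261 against 86.5 CPM in EDG7.5. The tetraspanin gene Tspan1 had 221 against 113 CPM in EDG9.5 and 232 against 88.0 CPM in EDG7.5. Rhox5, an X-linked homeobox gene of extraembryonic tissue, had 294 against 152 CPM in EDG9.5 and 296 against 127 CPM in EDG7.5. Their log2 ratios of CPM + 10 were 0.91 and 1.49, 0.91 and 1.30 and 0.91 and 1.16 in EDG9.5 and EDG7.5. On that scale none of these was past 2-fold in EDG9.5, while without the added CPM the EDG9.5 ratio of Srebf2 was 2.005. Dnmt3b, a de novo DNA methyltransferase, had 123 against 37.7 CPM in EDG9.5 and 141 against 75.6 CPM in EDG7.5, with log2 ratios of 1.48 and 0.82. Its catalytically inactive partner Dnmt3l, which is under the level set for naming and was picked after its values were seen, had 91.1 against 24.3 CPM in EDG9.5 and 56.6 against 21.6 CPM in EDG7.5. Unc5b, a netrin receptor gene also picked afterwards, had 60.6 against 15.8 CPM in EDG9.5 and 108 against 9.26 CPM in EDG7.5. Igf2os had 22.4 against 4.87 CPM in EDG9.5 and 30.9 against 6.17 CPM in EDG7.5, and for it the overlap with Igf2 stated above applies.

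On the scale of log2(CPM + 10), Gjb2, Txnip, Klf3 and Tmcc3 were past 2-fold lower in both libraries among genes of at least 100 CPM. The fold values that follow are of CPM without the added 10. Gjb2 had 1398 CPM in positive against 3035 CPM in negative trophoblast of EDG9.5, and 1097 against 2435 CPM in EDG7.5, 2.17-fold (2.06 to 2.29) and 2.22-fold (2.08 to 2.37) lower. It was at 0 in 22.7% of positive against 7.79% of negative cells of EDG9.5 and in 24.5% against 9.79% in EDG7.5, and the median cell had 1054 against 2864 CPM and 615 against 1939 CPM. Txnip, an inhibitor of thioredoxin and of glucose uptake, had 99.6 against 271 CPM in EDG9.5 and 153 against 333 CPM in EDG7.5. Klf3, a repressor of the Krüppel-like family, had 82.6 against 180.1 CPM in EDG9.5 and 89.2 against 225 CPM in EDG7.5, and Tmcc3, a membrane protein gene, 59.0 against 133 CPM in EDG9.5 and 42.3 against 117 CPM in EDG7.5. These were 2.72-fold (2.26 to 3.28) and 2.19-fold (1.82 to 2.62) lower for Txnip, 2.18-fold (1.75 to 2.71) and 2.53-fold (2.003 to 3.19) for Klf3 and 2.25-fold (1.74 to 2.90) and 2.77-fold (1.99 to 3.87) for Tmcc3. Scd1, which makes monounsaturated fatty acids, had 176 against 354 CPM in EDG9.5 and 173 against 423 CPM in EDG7.5. It was 2.02-fold and 2.45-fold lower without the added CPM, but its EDG9.5 log2 ratio of CPM + 10 was -0.97. Degs1, a desaturase of ceramide synthesis, had 159 against 286 CPM in EDG9.5 and 158 against 319.6 CPM in EDG7.5. The SNARE gene Stx3, which serves apical transport in epithelia, had 259.9 against 527 CPM in EDG9.5 and 272 against 542 CPM in EDG7.5.

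Hbegf, the EGF family ligand known from the attachment of the blastocyst, was lower in positive cells at 165 against 404 CPM in EDG9.5 and 138 against 253 CPM in EDG7.5. Fosb, an immediate early transcription factor, had 236 against 708 CPM in EDG9.5 and 177 against 344 CPM in EDG7.5. The 2 genes had log2 ratios of -1.24 and -0.83 and -1.54 and -0.92, past 2-fold in EDG9.5 and short of it in EDG7.5. Macf1, which links microtubules to actin, had 205 against 379.7 CPM in EDG9.5 and 155 against 319.6 CPM in EDG7.5, and the interleukin 1 receptor antagonist gene Il1rn 85.0 against 161 CPM in EDG9.5 and 59.4 against 129.7 CPM in EDG7.5. Nabp1, which encodes a single-stranded DNA binding protein, had 122 against 223 CPM in EDG9.5 and 95.5 against 212 CPM in EDG7.5. In EDG7.5 the log2 ratios of Macf1, Il1rn and Nabp1 were -0.99, -1.01 and -1.07.

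Genes were then read in lists chosen for blastocyst trophoblast. Of all 5938 genes, 28.6% had a log2 ratio above 0 in both libraries and 37.7% below 0 in both, and a list is read against these shares and the all-gene medians given above. Among FGF receptors, targets and feedback inhibitors of ERK, 7 of 12 measured genes were above 0 in both libraries and 0 below 0 in both, with a median log2 ratio of 0.33 in EDG9.5 and 0.56 in EDG7.5. Fgfr1 and Spry2 were given above. Dusp4, a phosphatase of ERK, had 118 against 52.3 CPM in EDG9.5 and 52.0 against 16.98 CPM in EDG7.5 and was past 2-fold in both. Phlda1, a target of ERK signals, had 70.8 against 34.1 CPM in EDG9.5 and 137 against 23.2 CPM in EDG7.5, and Spred1, an inhibitor of the pathway, 24.8 against 0 CPM in EDG9.5 and 26.3 against 9.26 CPM in EDG7.5. These 2 were picked for their values. The most abundant genes of the list showed no common direction. Fgfr2, the main FGF receptor of trophectoderm, had 318 against 335 CPM in EDG9.5 and 373 against 371 CPM in EDG7.5. Dusp6 had 396 against 476 CPM in EDG9.5 and 383 against 286 CPM in EDG7.5 and Egr1 388 against 596 CPM in EDG9.5 and 469 against 395 CPM in EDG7.5, lower in EDG9.5 and higher in EDG7.5.

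Cholesterol synthesis had a median of 0.49 in EDG9.5 and 1.03 in EDG7.5 over 13 and 13 measured genes. At least 2-fold higher were 1 in EDG9.5 and 7 in EDG7.5, beside 1.08% and 1.23% of all genes. At least 2-fold lower were 0 in each library, beside 0.513% and 0.716% of all genes. Of 12 genes measured in both libraries, 7 were above 0 in both and 2 below. Sc4mol (Msmo1), an enzyme late in the pathway, had 76.9 against 41.4 CPM in EDG9.5 and 154 against 55.6 CPM in EDG7.5. Fdps, the farnesyl diphosphate synthase, had 21.1 against 4.87 CPM in EDG9.5 and 29.7 against 4.63 CPM in EDG7.5 and was past 2-fold in both. The sterol carrier gene Stard4, in contrast, was lower, at 65.9 against 128 CPM in EDG9.5 and 85.2 against 117 CPM in EDG7.5, and Insig1, which holds back the pathway, had 190.3 against 258 CPM in EDG9.5 and 349 against 307 CPM in EDG7.5. Without cells of at least 12000 UMIs the medians were 0.48 and 0.85.

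Genes of mitosis were higher in positive trophoblast, with a median of 1.06 in EDG9.5 and 0.54 in EDG7.5 over 16 and 6 measured genes. At least 2-fold higher were 8 of 16 in EDG9.5, beside 1.08% of all genes, and 2 of 6 in EDG7.5, beside 1.23%. The minimum of 50 UMIs was over both sums, and positive cells held more UMIs. Low genes that are higher in positive cells reached it more easily, and the part of this in these counts was not tested. Ccna2, Mki67, Aurkb and Kif20a had 0 UMIs in negative trophoblast of EDG9.5. Of 6 measured in both libraries 5 were above 0 in both, and the list summed to 759.7 CPM in positive against 225 CPM in negative trophoblast of EDG9.5, and 465 against 224 CPM in EDG7.5. Cenpa, the centromeric histone, had 55.7 against 24.3 CPM in EDG9.5 and 49.2 against 16.98 CPM in EDG7.5. Kif23, a kinesin of cytokinesis, had 35.8 against 10.95 CPM in EDG9.5 and 34.3 against 10.8 CPM in EDG7.5. The EDG9.5 values were smaller without deep cells. Without cells of at least 12000 UMIs the EDG9.5 median was 0.56, with 2 of 10 measured genes past 2-fold, and the EDG7.5 median 0.78 over 4 genes. The list of S phase genes had medians of 0.26 in EDG9.5 and 0.20 in EDG7.5, with 10 of 15 above 0 in both libraries and 0 past 2-fold, and Rrm2, a subunit of ribonucleotide reductase, had 136 against 90.1 CPM in EDG9.5 and 134 against 95.7 CPM in EDG7.5. Cell cycle inhibitors summed to 762 CPM in positive against 1277 CPM in negative trophoblast of EDG9.5, and 697 against 1048 CPM in EDG7.5. Btg2, an antiproliferative gene that is also on the immediate early list, had 154 against 386 CPM in EDG9.5 and 126 against 196 CPM in EDG7.5, and Cdkn1a (p21) 94.8 against 128 CPM in EDG9.5 and 66.3 against 120.4 CPM in EDG7.5. The median of that list was -0.04 in EDG9.5 and -0.33 in EDG7.5, and 0.02 in EDG9.5 with TMM factors.

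Among partners of MSX and other homeobox genes, 5 of 7 genes measured in both libraries were above 0 in both, with medians of 0.47 in EDG9.5 and 0.40 in EDG7.5. Satb1, a chromatin organiser with a homeodomain, had 238 against 169 CPM in EDG9.5 and 380.1 against 222 CPM in EDG7.5. Cdx1, a relative of Cdx2, had 39.0 against 23.1 CPM in EDG9.5 and 50.9 against 15.4 CPM in EDG7.5. Msx2, the closest relative of Msx1, had 78.1 against 93.7 CPM in EDG9.5 and 44.0 against 41.7 CPM in EDG7.5. BMP signalling, a known inducer of Msx genes, had medians of -0.10 in EDG9.5 and 0.11 in EDG7.5. In EDG9.5 the sign of that median turned when cells were thinned (0.07). Its target gene Id2 had 1209 against 924 CPM in EDG9.5 and 1043 against 865 CPM in EDG7.5 and Id3 43.5 against 24.3 CPM in EDG9.5 and 57.2 against 47.9 CPM in EDG7.5, while the receptor gene Bmpr1a had 99.6 against 127 CPM in EDG9.5 and 114 against 108 CPM in EDG7.5. The ligand genes of the list were scarce, and Bmp2 had 0.813 against 0 CPM in EDG9.5 and 0.572 against 0 CPM in EDG7.5.

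Imprinted genes other than Igf2, a list on which H19 itself stands, showed no common direction across the settings run. The list had 11 and 10 measured genes with medians of 0.15 in EDG9.5 and 0.09 in EDG7.5, and 4 of 10 were above 0 in both libraries; thinned cells gave -0.02 and -0.65. Peg3, a paternally expressed zinc finger gene, was higher at 91.5 against 46.2 CPM in EDG9.5 and 69.7 against 35.5 CPM in EDG7.5. Igf2r, the maternally expressed receptor that clears IGF2, had 141 against 138 CPM in EDG9.5 and 152 against 129.7 CPM in EDG7.5. Slc38a4, an imprinted amino acid transporter gene, had 164 against 189 CPM in EDG9.5 and 201 against 236 CPM in EDG7.5. Genes of IGF and insulin signalling had medians of -0.27 in EDG9.5 and -0.01 in EDG7.5 (0.07 in EDG7.5 with depth weighting), with 7 of 14 below 0 in both. Akt1, a kinase of the pathway, had 105 against 141 CPM in EDG9.5 and 114 against 199 CPM in EDG7.5, and Igf2bp2, which binds Igf2 mRNA, 443 against 549 CPM in EDG9.5 and 508 against 557 CPM in EDG7.5. The IGF1 receptor gene Igf1r was near the limit of detection, with 4.88 against 4.87 CPM in EDG9.5 and 4.57 against 0 CPM in EDG7.5, so a difference in it was not detectable at this depth.

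Retinoid genes other than Cyp26a1 had medians of -0.34 in EDG9.5 and 0.03 in EDG7.5 over 6 measured genes. The EDG7.5 median turned sign with a minimum of 10 UMIs (-0.05). Of 6 genes measured in both libraries, 2 were above 0 in both and 3 below. Adh5 was among those above 0, with log2 ratios of 0.13 in EDG9.5 and 0.88 in EDG7.5. Adh1, an alcohol dehydrogenase that can oxidise retinol and by far the most abundant gene of the list, was lower in positive cells at 4632 against 7116 CPM in EDG9.5 and 4667 against 6791 CPM in EDG7.5. The retinoid X receptor gene Rxra had 30.1 against 40.2 CPM in EDG9.5 and 26.9 against 47.9 CPM in EDG7.5, and Nrip1, a corepressor that retinoic acid induces in other cells, 137 against 269 CPM in EDG9.5 and 154 against 161 CPM in EDG7.5. The genes of retinoic acid synthesis Aldh1a1 and Aldh1a3 had 0 UMIs in positive trophoblast of both libraries, which allows up to 1.22 CPM in EDG9.5 and 1.71 CPM in EDG7.5, taking 3 counts over the class as the limit of a count of 0. Aldh1a2, of the same family, was detected in positive trophoblast of EDG9.5. It was not detected in positive trophoblast of EDG7.5 or in negative trophoblast of either library.

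Genes of polar trophectoderm and extraembryonic ectoderm had medians of 0.09 in EDG9.5 and 0.20 in EDG7.5, and 7 of 13 were above 0 in both libraries. The EDG9.5 median turned negative in thinned cells (-0.15) and with depth weighting (-0.02). Ddah1 had 739.8 against 556 CPM in EDG9.5 and 677 against 404 CPM in EDG7.5, and Rhox5 was given above. Elf5, a transcription factor of the trophoblast stem cell state, had 93.5 against 58.4 CPM in EDG9.5 and 135 against 103 CPM in EDG7.5. Eomes, the T-box factor of the same state, had 411 against 471 CPM in EDG9.5 and 496 against 602 CPM in EDG7.5. Mural and giant cell genes had medians of -0.22 in EDG9.5 and -0.43 in EDG7.5 over 5 and 4 genes, with 3 of 4 below 0 in both; with a minimum of 10 UMIs the EDG9.5 median was 0.08. Ndrg1, a gene of differentiating trophoblast, had 1091 against 1571 CPM in EDG9.5 and 851 against 1260 CPM in EDG7.5, and the glucose transporter gene Slc2a3 1421 against 1655 CPM in EDG9.5 and 965 against 1184 CPM in EDG7.5. The giant cell hormone genes Prl3d1 and Prl2c2, and Gcm1, Mmp9 and Pparg, had 0 UMIs in positive and negative cells of both libraries.

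Keratins and core trophoblast genes separated the classes little. Krt18 had 3681 against 3269 CPM in EDG9.5 and 3749 against 3787 CPM in EDG7.5 and Krt8 729 against 639 CPM in EDG9.5 and 598 against 516 CPM in EDG7.5, and the core list had medians of 0.00 in EDG9.5 and 0.03 in EDG7.5. Of 23 junction and keratin genes measured in both libraries, 11 were below 0 in both and 1, Gjb2, was past 2-fold lower in both, with medians of -0.10 in EDG9.5 and -0.15 in EDG7.5. Epcam, an epithelial adhesion gene, had 1138 against 1407 CPM in EDG9.5 and 1489 against 1741 CPM in EDG7.5, and the tight junction gene F11r 248 against 359 CPM in EDG9.5 and 318 against 428 CPM in EDG7.5. Adhesion and implantation genes had medians of -0.05 in EDG9.5 and -0.05 in EDG7.5, both of which turned positive with TMM factors (0.03 and 0.01). Lama5, a laminin chain gene, was higher in positive cells at 84.2 against 45.03 CPM in EDG9.5 and 143 against 60.2 CPM in EDG7.5.

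Aquaporins and ion pumps build the fluid cavity of the blastocyst. Of 8 measured in both libraries, 6 were below 0 in both, with medians of -0.08 in EDG9.5 and -0.34 in EDG7.5. Aqp3 had 827 against 1212 CPM in EDG9.5 and 655 against 1082 CPM in EDG7.5, Aqp9 346 against 495 CPM in EDG9.5 and 308 against 469 CPM in EDG7.5 and Aqp8 96.0 against 170.4 CPM in EDG9.5 and 60.02 against 100.3 CPM in EDG7.5, all lower in positive cells. Atp1b1, a subunit of the sodium pump, was higher at 794 against 616 CPM in EDG9.5 and 729 against 601 CPM in EDG7.5. Lysosome and autophagy genes had medians of -0.19 in EDG9.5 and -0.22 in EDG7.5, with 16 of 26 below 0 in both and 3 above. Psap, the precursor of the saposins, had 4695 against 6177 CPM in EDG9.5 and 5556 against 7657 CPM in EDG7.5, and Npc1, which exports cholesterol from lysosomes, 33.8 against 66.9 CPM in EDG9.5 and 30.3 against 88.0 CPM in EDG7.5.

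Immediate early genes, which cell dissociation can induce, were lower in positive trophoblast, mostly in EDG9.5. Their medians were -0.66 in EDG9.5 and -0.08 in EDG7.5, and 11 of 18 were below 0 in both libraries. They summed to 6640 CPM in positive against 11752 CPM in negative trophoblast of EDG9.5, and 7014 against 8168 CPM in EDG7.5. Fos had 897 against 1986 CPM in EDG9.5 and 728 against 761 CPM in EDG7.5, and Jund 1338 against 2134 CPM in EDG9.5 and 1932 against 2350 CPM in EDG7.5. Their part in the other differences was not tested. Of the remaining lists, medians were -0.25 in EDG9.5 and 0.05 in EDG7.5 for WNT signalling, 0.54 in EDG9.5 and -0.06 in EDG7.5 for glycolysis, 0.10 in EDG9.5 and -0.07 in EDG7.5 for fatty acid oxidation and lipid uptake, and 0.20 in EDG9.5 and 0.20 in EDG7.5 for the integrated stress response, of which 6 of 11 genes were above 0 in both libraries and 1 below. Signs of 3 of these lists turned under an alternative, with EDG7.5 at 0.14 for glycolysis with a minimum of 10 UMIs, and EDG9.5 at -0.15 for the stress response with depth weighting and at -0.11 for fatty acid oxidation in thinned cells. Asns, the asparagine synthetase gene of the stress response list, had 43.1 against 17.04 CPM in EDG9.5 and 30.3 against 9.26 CPM in EDG7.5.

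**Figure D4:**
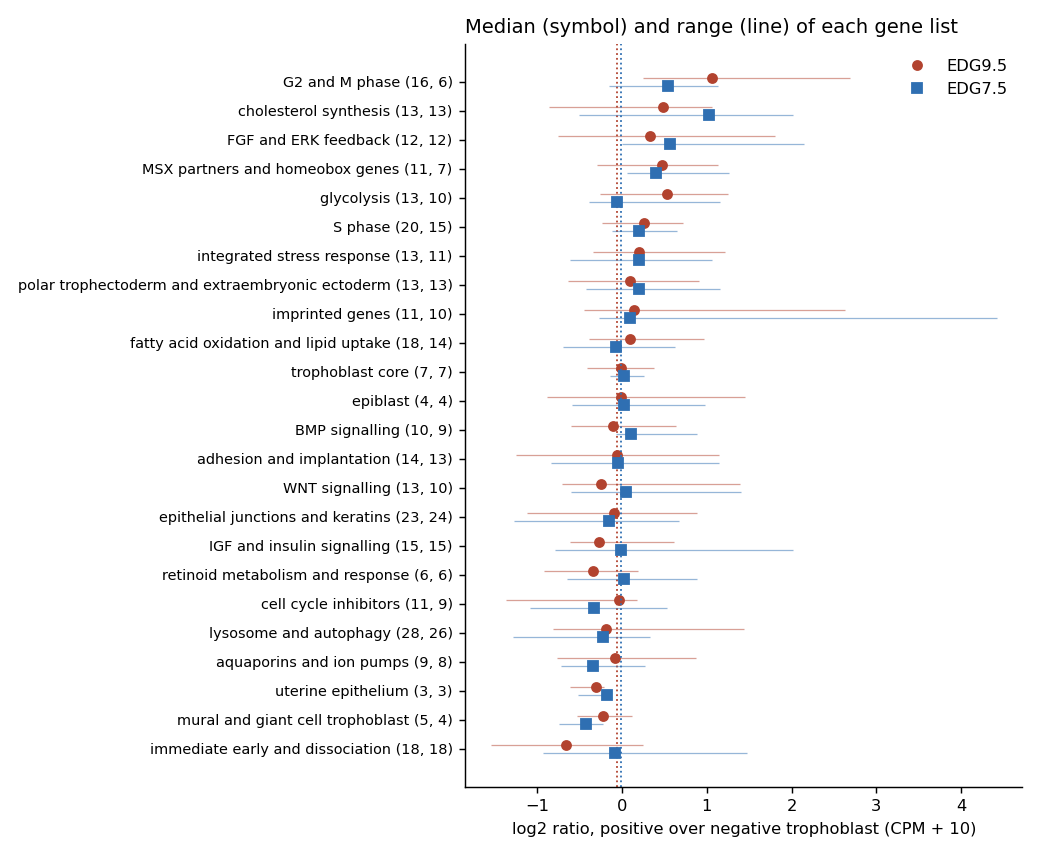
Median (symbols) and range (lines) of the log2 ratio of CPM + 10 of positive over negative trophoblast for each gene list with at least 3 measured genes, for EDG9.5 (circles) and EDG7.5 (squares), with the numbers of measured genes in that order in parentheses. Dotted lines are the medians of all measured genes (-0.06 and -0.01). Mitosis, cholesterol synthesis, FGF feedback and homeobox genes are among the lists to the right of these lines in both libraries. Lysosome and autophagy, aquaporins and ion pumps, immediate early, and mural and giant cell genes are among those to the left. The mural and giant cell list rests on 5 and 4 genes.

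Markers of other cells were looked for in the same sums. Of the 12 genes of the uterine epithelium list, 7 were detected in positive cells of each library. Lif, a cytokine gene, had 248 against 385 CPM in EDG9.5 and 198 against 287 CPM in EDG7.5, while Wnt7a, Calb1, Pgr, Esr1 and Ehf had 0 UMIs in all 4 sums. Msx1 is also known from uterine epithelium. The part of Lif and the other detected genes of the list in the results was not tested. Decidual stroma genes summed to 2.44 against 0 CPM in EDG9.5 and 2.29 against 1.54 CPM in EDG7.5, with 4 of 12 detected in positive cells of each library. Immune genes summed to 5.29 against 3.65 CPM and 0.572 against 4.63 CPM, with Ptprc at 0 throughout, erythroid genes to 0.813 against 0 CPM and 0.572 against 0 CPM, and endothelial genes to 4.07 against 1.22 CPM and 6.29 against 6.18 CPM. Epiblast genes outside the rule had medians of -0.01 and 0.03 over 4 genes. The epiblast and endoderm genes of the rule helped choose the cells, so their log2 ratios are descriptions. In EDG9.5 and EDG7.5 they were 1.01 and 0.34 for Tdgf1, 0.61 and 0.39 for Sox2, 0.16 and -0.04 for Nanog and 0.32 and 0.16 for Fgf4. They were 0.99 and 0.80 for Sparc, 0.31 and 0.28 for Lamb1, 0.37 and 0.28 for Srgn and 0.17 and -1.14 for Col4a1. Sox2 had only 13 and 9 UMIs in positive cells. Of the 4 epiblast genes outside the rule, 2 were above 0 in both libraries and 2 below. Utf1, the highest, had 43.9 against 9.74 CPM in EDG9.5 and 28.0 against 9.26 CPM in EDG7.5. Lower in both were Klf2, with log2 ratios of -0.89 and -0.59, and Dppa5a, with -0.23 and -0.15. Dab2, of the endoderm list, had 1947 against 2818 CPM in EDG9.5 and 1757 against 2171 CPM in EDG7.5.

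Between the 2 diapause stages, the selecting genes and H19 differed by less than 2-fold in positive trophoblast. EDG9.5 over EDG7.5, the log2 ratio of CPM + 10 was -0.34 for Msx1, -0.28 for Igf2, 0.53 for Cyp26a1 and -0.23 for H19. H19 in negative trophoblast differed more, with 1275 CPM in EDG9.5 and 426 CPM in EDG7.5, a log2 ratio of 1.56. In trophoblast as a whole it had 5360 CPM in EDG9.5 and 5370 CPM in EDG7.5. Negative cells are those without a selecting UMI, and their median depth was 3136 UMIs in EDG9.5 and 3851 UMIs in EDG7.5. The part of depth in the difference between negative cells was not tested. Over 7438 genes measured in positive cells, 35 (0.471%) were at least 2-fold higher in EDG9.5 and 17 (0.229%) at least 2-fold lower, with a median of -0.04. The count of higher genes depended on deep cells and was 16 among cells under 12000 UMIs, beside 18 lower.

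Acta1, skeletal muscle actin, had the largest ratio, with 144 CPM in EDG9.5 and 1.14 CPM in EDG7.5, but 96.6% of its 355 UMIs in EDG9.5 lay in 1 cell. That cell had 12441 UMIs, 343 of Acta1, 13 of Igf2 and 0 of H19 and Msx1, and without it the log2 ratio was 0.42. Slc39a4, a zinc importer gene, had 115 CPM in EDG9.5 and 36.6 CPM in EDG7.5, a log2 ratio of 1.42, and 0.08 in negative trophoblast. Dusp4 had 118 CPM in EDG9.5 and 52.0 CPM in EDG7.5, with 1.04 in positive and 1.21 in negative cells. Basp1, a membrane-bound protein gene, had 236 CPM in EDG9.5 and 101 CPM in EDG7.5, and S100a6, a calcium-binding protein gene, 302 CPM in EDG9.5 and 142 CPM in EDG7.5. Both were lower at EDG9.5 in negative cells (log2 -0.76 and -0.55), and in cells under 12000 UMIs the log2 ratio of positive cells was -0.04 for Basp1 and 0.75 for S100a6. The glycolytic enzyme gene Eno1, whose reads may be shared with close copies, had 114 CPM in EDG9.5 and 50.3 CPM in EDG7.5 in positive cells and a log2 ratio of -0.29 in negative cells.

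Lower in EDG9.5 than in EDG7.5 were Cyp51, a cholesterol synthesis enzyme, with 42.7 CPM in EDG9.5 and 109 CPM in EDG7.5, and Dcp2, which removes the cap of mRNA, with 45.1 CPM in EDG9.5 and 104 CPM in EDG7.5. Their log2 ratios were -1.17 and -1.05 in positive and -0.24 and -0.29 in negative trophoblast. Cholesterol synthesis genes as a list had a median of -0.63 between the stages in positive cells and -0.19 in negative cells, and 0 of its 18 measured genes were 2-fold higher and 1 was 2-fold lower. Pigp, of GPI anchor synthesis, had 243 CPM in EDG9.5 and 509 CPM in EDG7.5, and Cdk2, the cell cycle kinase, 88.3 CPM in EDG9.5 and 178 CPM in EDG7.5. Negative trophoblast showed these differences as well, with log2 ratios of -1.18 and -1.05 beside -1.04 and -0.93. Hsd17b6, a steroid and retinol dehydrogenase gene, had 57.8 CPM in EDG9.5 and 124 CPM in EDG7.5. Cd63-ps, a pseudogene whose reads may be those of Cd63, had 99.6 CPM in EDG9.5 and 209 CPM in EDG7.5.

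Over all 4 libraries, trophoblast as a whole had 303, 256, 149.7 and 5.79 CPM of Msx1 in EDG7.5, then EDG9.5, then Reactivated and then E5.5, and 344, 345, 67.4 and 43.2 CPM of Cdx2. Cyp26a1 had 150.4, 218, 33.7 and 36.8 CPM. Each of these was lower in Reactivated and E5.5 than in both diapause libraries. Igf2 and H19 took another course, with 384, 341, 206 and 889 CPM of Igf2 and 5370, 5360, 4118 and 9058 CPM of H19. In endoderm, Cyp26a1 had 8.72, 4.53, 162 and 373 CPM and H19 46.0, 76.5, 457 and 6583 CPM, so both were at higher levels in endoderm of Reactivated and E5.5 than in endoderm of either diapause library. The cells reaching 3 selecting UMIs were 58.3% of 144 trophoblast cells in Reactivated and 94.2% of 1631 in E5.5, at median depths of 11951.5 and 9553 UMIs. In thinned cells the shares over the 4 libraries were 9.45%, 10.6%, 2.08% and 8.40%. They are not the same cells by content, since in E5.5 Igf2 was detected in 100% and Msx1 in 5.01% of them. Cells above the threshold in Reactivated had 5520 CPM of H19 against 623 CPM in its 33 cells without selecting UMIs, of which 48.1% of UMIs lay in 1 cell, and 80.9 against 20.8 CPM of Cdx2.

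**Figure D5:**
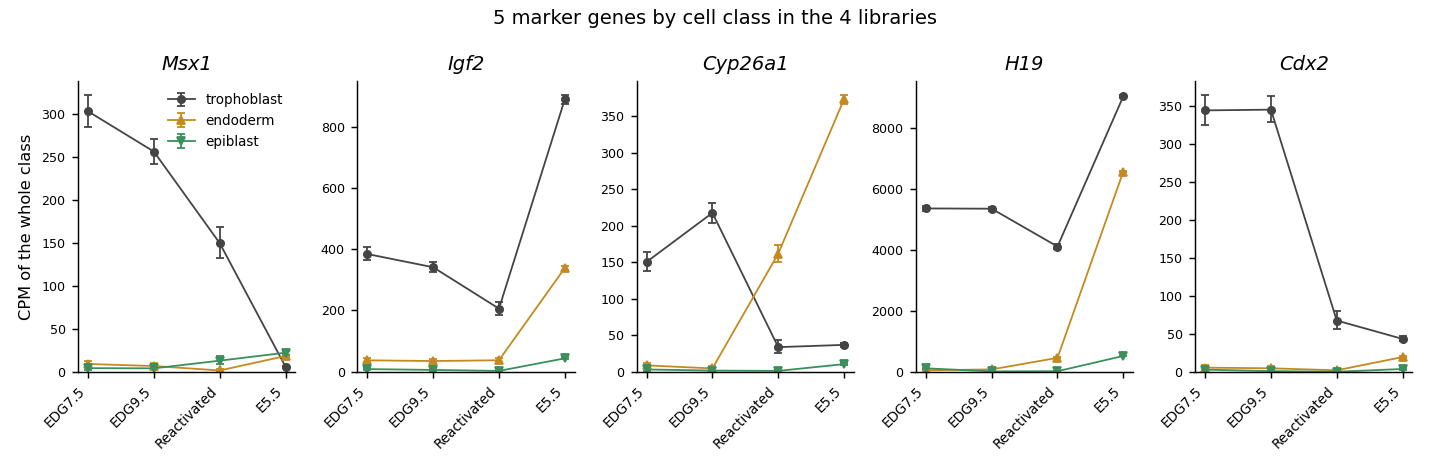
CPM (vertical axes, linear from 0) of the 5 markers in all trophoblast, endoderm and epiblast cells of each library in the order EDG7.5, EDG9.5, Reactivated, E5.5, with 95% Poisson intervals of counting error. Msx1 and Cdx2 of trophoblast are high in EDG7.5 and EDG9.5 (303 and 256 CPM, 344 and 345 CPM) and low in E5.5 (5.79 and 43.2 CPM), while Cyp26a1 reaches 373 CPM in E5.5 endoderm.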

How the data were processed

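Per the submitters' processing notes, the tools were STAR 2.7.1a, featureCounts 1.6.4 of Subread, and UMI-tools 1.0.1, and the genome was mm10. The deposited files hold UMI counts per gene and cell, not normalized by the authors. The sources used here give no gene annotation, barcode rule or strand setting. EDG7.5 held 9620232 UMIs over 1726 barcodes, EDG9.5 10994918 over 2566, Reactivated 9270833 over 677 and E5.5 87507141 over 9560. E4.5 is not analysed here.

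Cells with at least 1000 UMIs were classed by the rule given above, and counts were summed per class and library with Python 3.11.15, numpy 2.4.6, scipy 1.17.1 and pandas 2.3.3. With 1 library a stage and cells that are not replicates, no test was run. Intervals are exact Poisson for CPM, Clopper-Pearson for shares and conditional binomial for ratios, at 95%, and cover counting error only. Log2 ratios are of CPM + 10, so they understate differences of low genes, and a gene counted as measured had at least 50 UMIs over the 2 sums. Genes of the choice of cells were left out of counts. The 12 genes named each way were ranked by the smaller of their 2 library ratios in size, among genes with the same sign in both libraries and at least 100 CPM in positive or negative cells of each, and between stages 6 each way were named by ratio. In lists, named genes were up to 4 by level and up to 2 by ratio. The 29 lists hold 621 genes, of which 5 were not found. The members and lists were chosen with earlier results of these data known. Ribosomal protein, mitochondrial, predicted and haemoglobin genes were not named. The counting was tested on simulated data. Of 21734 gene names in the diapause files, 18648 match a RefSeq symbol of GRCm38.p6, the same build. Doublets were scored with Scrublet in scanpy 1.11.5 (8 of 2522 cells in EDG9.5 and 14 of 1723 in EDG7.5) and kept. Alternatives changed thresholds, depth, scaling (TMM from edgeR 4.0.16), added CPM, filters and the selecting gene. Some values of 2 gene lists are not reported here.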

Additional observations from a re-analysis of the deposited data

Results flagged for a closer look

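Among 155 screened genes, 4 differed in direction between the diapause libraries, with counting intervals on either side of 1. Whether the libraries differ was not tested, since each is 1 library. The log2 ratio of CPM + 10 of positive over negative trophoblast was -0.26 in EDG9.5 and 0.41 in EDG7.5 for Dusp6, a phosphatase of ERK, and -0.61 and 0.24 for Egr1, an immediate early transcription factor. For Basp1 it was 1.15 in EDG9.5 and -0.75 in EDG7.5, and for S100a6 1.17 and -0.41. Among cells under 12000 UMIs the values were -0.12 and 0.42 for Dusp6, -0.51 and 0.25 for Egr1, -0.02 and -0.70 for Basp1, and 0.71 and -0.50 for S100a6, so Basp1 no longer differed in direction.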

How the results depend on the processing

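No paired analysis was possible because each stage is 1 library without replicates, and for the same reason no replicate could be left out. Positive cells made up 57.3% of trophoblast in EDG9.5 and 58.6% in EDG7.5 with at least 2 UMIs, 23.1% and 28.8% with at least 6, and 10.6% and 9.45% in thinned cells. The count of genes 2-fold higher in both libraries, 20 as reported, was 12 with at least 2 UMIs, 9 in thinned cells, 33 with totals without ribosomal protein and mitochondrial genes, 44 and 2 with 1 and 50 CPM added, 6 with a minimum of 200 UMIs, and 4 and 0 when cells were chosen by Igf2 or Cyp26a1 alone. The count of lower genes, 9 as reported, was 4 with at least 2 UMIs and 22 with at least 6, 21 and 1 with 1 and 50 CPM added, 14 and 3 with a minimum of 10 and 200 UMIs, and 41, 3 and 0 by Msx1, Igf2 and Cyp26a1 alone. Between the stages, the 35 higher genes were 22 in thinned cells, 17 by means over cells, 89 and 2 with 1 and 50 CPM added, 12 with a minimum of 200 UMIs, 23 and 21 by Msx1 and Cyp26a1 alone, 16 under 12000 UMIs, and 15 with depth weighting, which leaves out 24 deep positive cells of EDG9.5. The 17 lower genes were 28 with at least 6 UMIs, 59 and 1 with 1 and 50 CPM added, and 8 with a minimum of 200 UMIs. A higher minimum of UMIs leaves fewer genes to count, and more added CPM shrinks log2 ratios. Thinning also leaves fewer genes, with 1500 measured in both libraries beside 5938 as reported, and 2493 between the stages beside 7438. For the gene counts in thinned cells, the classes were those set at full depth, while the shares were counted anew from the thinned UMIs. With at least 6 selecting UMIs 5067 genes were measured in both libraries, and 27 were higher and 22 lower. The cause of the shifts was not tested. All other values of these 4 counts under the alternatives run, including those with TMM factors (27, 7, 39 and 15) and leaving out the cell with most Acta1 UMIs (21, 9, 30 and 17), stayed within 1.5 times. The log2 ratio between stages turned to -0.0125 for Acta1 by Msx1 alone and to -0.0411 for Basp1 under 12000 UMIs (-0.0211 with depth weighting). In EDG9.5, Tdgf1, a gene of the epiblast rule, turned to -0.19 by Igf2 alone and -0.84 by Cyp26a1 alone, and Fdps to -0.17 by Cyp26a1 alone, as did Cdx1 in EDG7.5 (-0.0683). Of the 24 genes named in both libraries, Tspan1 in EDG9.5 (-0.03) and Fosb in EDG7.5 (0.21) turned sign, both by Cyp26a1 alone. H19 stayed above 0 under all alternatives run, between 0.34 and 3.09 in EDG9.5 and between 0.82 and 5.05 in EDG7.5, lowest by Cyp26a1 alone. Leaving out the Acta1 cell and keeping cells under 12000 UMIs were chosen after seeing the data. Genes under the 50 UMI minimum cannot be read at this depth.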
